A study of Mus musculus with 6 samples.

Results

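The genes described here are 10 genes of the integrated stress response and the unfolded protein response: Atf4, Atf6, Ddit3, Ddit4, Xbp1, Trib3, Chac1, Asns, Sesn2 and Herpud1. They were chosen by gene symbol, and each had exactly 1 probe set in the deposited table, so all 10 were measured among 22180 genes. They were compared between 3 Cre-positive and 3 Cre-negative kidney samples of mice aged 4 weeks, 1 array each. The mice came from a line with a conditional Mpp5 (Pals1) allele, its background written C56Bl/6 in the labels, and from a Six2-Cre transgenic line. Six2 drives Cre in nephron progenitors, from which the collecting duct does not arise. The labels give a mixed background for every sample and no treatment, and they do not give the number of conditional alleles in either group. Nor do they state that the samples were separate mice, and the p-values therefore describe the spread among 6 arrays, part of which may be technical.

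The integrated stress response starts with kinases that phosphorylate the translation factor eIF2, which lowers protein synthesis as a whole but raises translation of the transcription factor ATF4. ATF4 then acts on genes of amino acid supply, such as Asns, and on regulators such as Ddit3, Trib3, Chac1, Ddit4 and Sesn2. The unfolded protein response answers misfolded protein in the endoplasmic reticulum (ER) through 3 sensors: PERK, which is 1 of the eIF2 kinases, IRE1, which splices Xbp1 mRNA, and ATF6, which is cleaved in the Golgi apparatus. XBP1 and ATF6 raise transcription of ER chaperones and of genes of ER-associated degradation, such as Herpud1. In kidney, these pathways are known from tubular injury and from proteinuria.

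Values below are log2 RMA values, where RMA is the authors' background correction, normalization and probe summary, and a difference of 1 stands for a doubling. Differences are the mean of the Cre-positive arrays minus that of the Cre-negative arrays, with ± SE from a limma fit over all genes (n = 3 per group), and a gene passed at an adjusted p under 0.05. Mpp5 itself was at 8.04, 8.06 and 8.20 in Cre-positive arrays, against 8.66, 8.69 and 8.78 in Cre-negative arrays (-0.61 ± 0.09, adjusted p = 0.00232). Xist was at 4.29, 4.13 and 4.00 in Cre-positive arrays, against 10.76, 10.70 and 4.16 in Cre-negative arrays, and the Y-linked genes ran the opposite way, so the 3 Cre-positive arrays and Cre-negative replicate 3 had male transcripts. Because the groups were unequal in sex, differences from Cre-negative replicate 3 alone and a fit that adds the sex read from these genes (the sex term) are given beside the results. The estimate of that fit equals the difference from Cre-negative replicate 3. Its SE was larger for each of the 10 genes, so their calls can be lost through a smaller estimate, through the SE or through both. Skeletal muscle transcripts were present in Cre-positive replicate 2, with a mean of 6.93 over 8 markers and 4.92 to 5.45 elsewhere. Adrenal cortex transcripts were present in Cre-negative replicate 2, with a mean of 9.01 over 7 markers and 4.36 to 4.57 elsewhere.

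Of the 10 genes, 6 were higher in Cre-positive kidneys and 0 were lower by limma's test: Ddit4, Asns, Xbp1, Atf4, Sesn2 and Ddit3. Over all tested genes 10.7% were called higher and 11.1% lower, 21.8% in all. The median difference of the 10 genes was 0.43, against -0.01 for all genes. For the same 6 genes every Cre-positive value lay above every Cre-negative value, an order found for 18.6% of all genes. The exact two-sided permutation test gave each of the 6 genes p = 0.1, the smallest that 3 against 3 arrays allow. Trib3, Chac1, Atf6 and Herpud1 did not pass. Xbp1 and Asns were the 2 genes still called with the sex term, where 4.1% of all genes were called higher. They were also the 2 genes called when both of those arrays were left out, where the share was 3.96%.

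**Figure D1:**
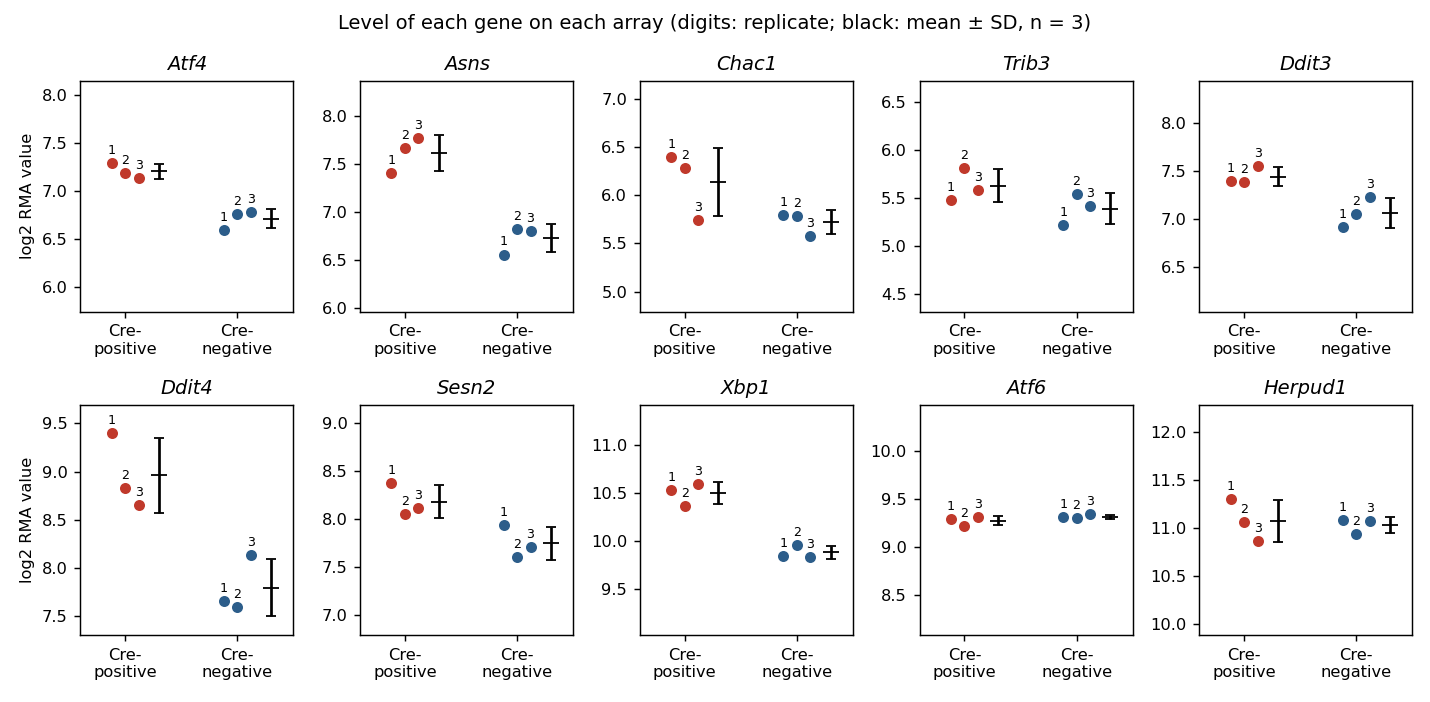
Log2 RMA value of each of the 10 genes (y axis, 1 panel per gene, each spanning the same range of log2 units) on each Cre-positive and Cre-negative array (x axis). Digits give the replicate number and black marks the mean ± SD (n = 3). The groups are apart for Atf4, Asns, Ddit3, Ddit4, Sesn2 and Xbp1 and overlap for Chac1, Trib3, Atf6 and Herpud1.

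The same arrays differed in their markers of cell types, and whole kidney was measured, so fewer cells of a type and less RNA per cell cannot be told apart. Of 15 proximal tubule markers 12 fell and 0 rose, 80% in all against 21.8% of all genes. Their mean level was 10.95 to 11.13 in Cre-positive and 12.08 to 12.17 in Cre-negative arrays. With the sex term 10 of the 12 calls held. Of 13 myeloid markers 12 rose and 0 fell, 92.3% in all against 21.8% of all genes. Their mean level was 8.29, 8.85 and 9.41 in Cre-positive replicates 1, 2 and 3 and 7.20 to 7.28 in Cre-negative arrays. With the sex term 5 of the 12 calls held. Over all genes 909 were called higher with the sex term, against 2372 without it. Plasma and B cell markers matter for Xbp1, which antibody-secreting cells express strongly. Of 9 such markers 1 rose and 0 fell, 11.1% in all against 21.8% of all genes. The 1 that rose was Sdc1 (0.95 ± 0.12), which epithelial cells can also express. Jchain (0.57 ± 0.29) and Cd79a (-0.35 ± 0.12), the largest differences among the rest, did not pass. The list's mean level was 5.25 to 5.47 in Cre-positive and 5.21 to 5.33 in Cre-negative arrays. These means lie below the median level of all genes (6.34), and RMA compresses differences of dim probe sets. Of 8 collecting duct markers 3 rose and 2 fell, 62.5% in all against 21.8% of all genes. Aqp2 (0.91 ± 0.23), Scnn1b (0.54 ± 0.12) and Scnn1g (0.56 ± 0.12) rose, and Slc4a1 (-1.02 ± 0.15) and Atp6v1g3 (-0.46 ± 0.12) fell. The calls of Aqp2, Slc4a1 and Atp6v1g3 were lost with the sex term. The part of these cell type markers in the results below was not tested.

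Atf4 encodes the transcription factor at the centre of the integrated stress response. Its probe set (17313100, Entrez gene 11911) was at 7.29, 7.19 and 7.14 in Cre-positive arrays, against 6.60, 6.76 and 6.78 in Cre-negative arrays. The Cre-positive values were thus all above the highest Cre-negative value. The difference was 0.49 ± 0.09, or 1.41-fold (95% interval 1.22 to 1.62), with limma adjusted p = 0.00697. The call held when any single array was left out, and it was lost with the sex term (0.43, adjusted p = 0.104) and without the replicates 2 of both groups (0.52, adjusted p = 0.0703), against a range of 0.0033 to 0.104 over all alternatives. As ATF4 is controlled mainly at translation, its transcript level does not measure its protein.

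Asns, asparagine synthetase, is a classical ATF4 target that is raised when amino acids are short. The probe set (17464718, Entrez gene 27053) was at 7.41, 7.67 and 7.77 in Cre-positive arrays, against 6.56, 6.83 and 6.80 in Cre-negative arrays. Replicate 1 was the lowest array of each group, and the groups were well apart. The difference was 0.89 ± 0.12, or 1.85-fold (95% interval 1.51 to 2.25), with limma adjusted p = 0.00212. Against Cre-negative replicate 3 it was 0.81, and adjusted p was 0.0413 with the sex term. Asns passed in all 16 alternatives, with adjusted p from 0.00122 to 0.0413.

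Chac1 encodes an enzyme that breaks down glutathione and is another ATF4 target. Its probe set (17374807, Entrez gene 69065) was at 6.40, 6.29 and 5.74 in Cre-positive arrays, against 5.80, 5.79 and 5.58 in Cre-negative arrays. Cre-positive replicate 3 lay within the Cre-negative range, while the other Cre-positive arrays were above it. The difference of 0.42 ± 0.17 did not pass (limma adjusted p = 0.13). Without Cre-positive replicate 3 it was 0.62 and passed (adjusted p = 0.0082), as it did with array weights (adjusted p = 0.0405), and the range over all alternatives was 0.0082 to 0.408. Trib3, a pseudokinase induced by ATF4 and CHOP that limits both, was at 5.48, 5.82 and 5.59 in Cre-positive arrays, against 5.22, 5.54 and 5.42 in Cre-negative arrays (probe set 17392925, Entrez gene 228775). Its groups overlapped and its difference of 0.24 ± 0.12 did not pass (limma adjusted p = 0.229). Its interval, -0.05 to 0.52, includes both 0 and the difference of Atf4.

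Ddit3 encodes CHOP, a transcription factor that promotes death of cells under lasting ER stress. It was at 7.39, 7.38 and 7.55 in Cre-positive arrays, against 6.92, 7.05 and 7.23 in Cre-negative arrays (probe set 17237978, Entrez gene 13198). The groups did not overlap, but Cre-negative replicate 3, the male one, was the closest to the Cre-positive arrays. The difference was 0.37 ± 0.11, or 1.30-fold (95% interval 1.09 to 1.54), with limma adjusted p = 0.0412, and it was 0.21 against that array alone. The call held when Cre-negative replicate 3 was left out (adjusted p = 0.0332) and was lost when any 1 of the other 5 arrays was left out (adjusted p from 0.0673 to 0.14). It was also lost with the sex term (adjusted p = 0.431), without the replicates 2 of both groups (0.40, adjusted p = 0.188), after centring the arrays on their medians (adjusted p = 0.0701) and with every row of the table tested (adjusted p = 0.0791).

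Ddit4 and Sesn2 encode inhibitors of mTORC1, the kinase complex that drives growth: Ddit4 makes REDD1, which is also induced by hypoxia and glucocorticoids, and Sesn2 makes sestrin 2, a leucine sensor that p53 induces as well. Ddit4 had the largest difference of the 10 genes. It was at 9.40, 8.83 and 8.65 in Cre-positive arrays, against 7.65, 7.59 and 8.13 in Cre-negative arrays (probe set 17241032, Entrez gene 74747). Its SD, 0.39 in Cre-positive and 0.29 in Cre-negative arrays, was the largest of the 10 genes in each group, yet the groups did not overlap. The difference was 1.17 ± 0.22, or 2.25-fold (95% interval 1.6 to 3.18), with limma adjusted p = 0.00697. It was 0.84 against Cre-negative replicate 3 and 0.95 without Cre-positive replicate 1. The call held without any single array, and it was lost with the sex term (adjusted p = 0.112) and without the replicates 2 of both groups (adjusted p = 0.0696). Sesn2 was at 8.37, 8.05 and 8.11 in Cre-positive arrays, against 7.93, 7.60 and 7.70 in Cre-negative arrays (probe set 17430861, Entrez gene 230784). Replicate 1 was the highest array of each group, and the groups did not overlap. The difference was 0.43 ± 0.12, or 1.35-fold (95% interval 1.11 to 1.65), with limma adjusted p = 0.0426. The call held without Cre-negative replicate 1 (adjusted p = 0.0394) and was lost without any 1 of the other 5 arrays (adjusted p from 0.0593 to 0.14), with the sex term (adjusted p = 0.183) and without the replicates 2 of both groups (adjusted p = 0.165). It was also lost after a second quantile normalization (0.0519), median centring (0.0808), array weighting (0.0544) and testing of every row (0.0813), with adjusted p from 0.025 to 0.183 over all alternatives.

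Xbp1 encodes the transcription factor whose mRNA is spliced by IRE1. Its probe set (17246967, Entrez gene 22433), which does not separate spliced from unspliced mRNA, was at 10.53, 10.37 and 10.60 in Cre-positive arrays, against 9.85, 9.96 and 9.84 in Cre-negative arrays. The groups were well apart, and the male Cre-negative array, replicate 3, was the lowest of its group. The difference was 0.62 ± 0.09, or 1.53-fold (95% interval 1.32 to 1.78), with limma adjusted p = 0.00306. Against Cre-negative replicate 3 it was 0.66, and Xbp1 passed in all 16 alternatives, with adjusted p from 0.00095 to 0.0352. Atf6, the membrane-bound sensor and transcription factor, was at 9.29, 9.22 and 9.31 in Cre-positive arrays, against 9.31, 9.30 and 9.34 in Cre-negative arrays (probe set 17229556, Entrez gene 226641). The groups overlapped, and the difference of -0.05 ± 0.08 did not pass (limma adjusted p = 0.745), with a 95% interval of -0.23 to 0.13. Herpud1, a membrane protein that organises ER-associated degradation, was at 11.30, 11.06 and 10.87 in Cre-positive arrays, against 11.09, 10.94 and 11.08 in Cre-negative arrays (probe set 17504005, Entrez gene 64209). The Cre-positive arrays held both its highest and its lowest value. The difference of 0.04 ± 0.12 did not pass (limma adjusted p = 0.858), and its interval of -0.24 to 0.32 does not reach the difference of Xbp1.

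**Figure D2:**
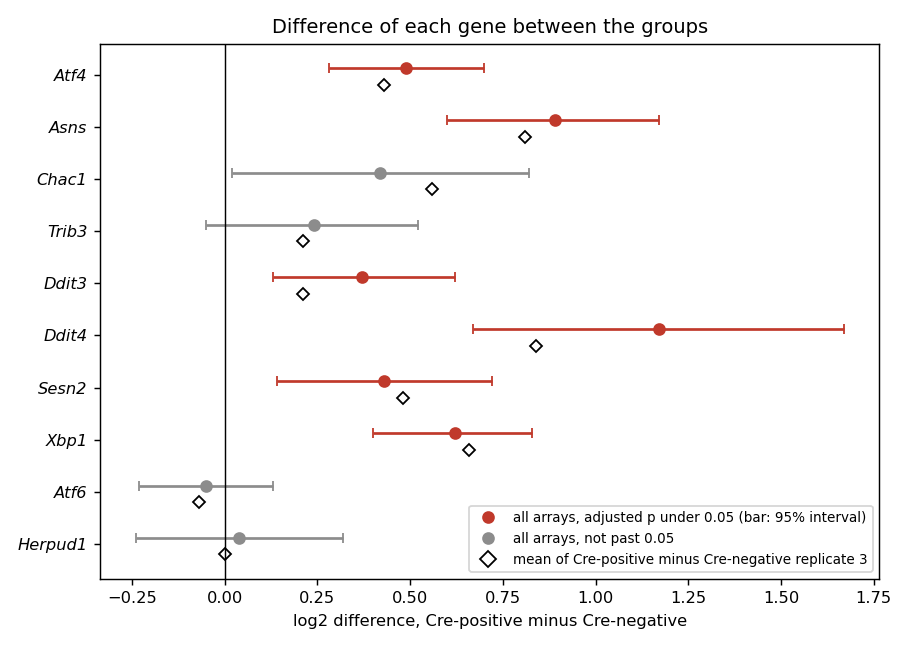
Log2 difference of each of the 10 genes, Cre-positive minus Cre-negative (x axis), with its 95% interval from limma (n = 3 per group), in red where adjusted p was under 0.05 and in grey otherwise. Open diamonds give the difference from Cre-negative replicate 3 alone, the male array of that group, which was 0.84 for Ddit4 against 1.17 over all arrays and 0.21 for Ddit3 against 0.37.

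Promoter sequence was read from RefSeq (GRCm38.p6) for 9 of the 10 genes, all but Atf6, as windows of 250 bases before and 50 bases after the transcription start. Each window was searched on both strands for 3 elements that stress-responsive transcription factors bind. The first, TGATGNAA, is the core of the C/EBP-ATF element that ATF4 binds with a C/EBP partner. The ER stress element of ATF6 and XBP1 is CCAAT followed by any 9 bases and CCACG, and its second form is ATTGG followed by any base and CCACG. No pair of these matches overlapped in the windows described. A match is a description of the letters and does not show binding. The bases before the start are shown for Asns, Chac1 and Herpud1, the genes with a match there, with the matches in capitals.
Asns (chr6:7693210-7693459, minus strand): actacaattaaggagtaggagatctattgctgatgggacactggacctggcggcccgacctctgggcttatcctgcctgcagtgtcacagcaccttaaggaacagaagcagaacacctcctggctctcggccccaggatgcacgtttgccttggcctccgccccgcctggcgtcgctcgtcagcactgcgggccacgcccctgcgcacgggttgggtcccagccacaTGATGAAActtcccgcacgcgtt
Chac1 (chr2:119350992-119351241, plus strand): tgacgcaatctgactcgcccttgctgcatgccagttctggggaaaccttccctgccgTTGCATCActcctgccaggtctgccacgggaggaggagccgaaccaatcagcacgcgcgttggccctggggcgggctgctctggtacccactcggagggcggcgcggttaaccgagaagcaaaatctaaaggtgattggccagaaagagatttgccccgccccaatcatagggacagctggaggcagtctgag
Herpud1 (chr8:94386179-94386428, plus strand): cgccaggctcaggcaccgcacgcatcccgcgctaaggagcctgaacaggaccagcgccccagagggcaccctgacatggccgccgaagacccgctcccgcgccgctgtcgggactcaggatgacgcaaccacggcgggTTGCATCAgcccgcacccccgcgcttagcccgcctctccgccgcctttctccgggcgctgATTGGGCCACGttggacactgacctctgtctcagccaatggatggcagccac

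The C/EBP-ATF core lay 23 to 16 bases before the start of Asns, which passed, 193 to 186 bases before that of Chac1 and 112 to 105 bases before that of Herpud1, which did not pass. Trib3 had a match 15 to 22 bases after the start. In all, 4 of 9 windows of these genes held it, against 3.97% of 32851 RefSeq windows of the same length. The members were known as stress response genes when they were listed. The second form of the ER stress element lay 52 to 42 bases before the start of Herpud1, against 0.0365% of all windows, and 0 of the 9 windows held the first form, against 0.119% of all. Ddit4, Xbp1, Atf4, Sesn2 and Ddit3, which rose, held 0 matches in these windows. Only exact letters were searched, so elements with a changed base or outside the windows would be missed. 3 further genes are shown for comparison, around their match and with their coordinates: Atf3 and Nupr1, which rose, with the C/EBP-ATF core in capitals, and Hspa5, which did not pass, with the ER stress element in capitals.
Atf3 (chr1:191183396-191183483, minus strand): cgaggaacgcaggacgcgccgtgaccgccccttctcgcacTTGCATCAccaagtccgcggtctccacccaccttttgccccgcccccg
Nupr1 (chr7:126625533-126625620, minus strand): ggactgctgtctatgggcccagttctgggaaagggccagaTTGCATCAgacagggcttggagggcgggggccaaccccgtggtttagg
Hspa5 (chr2:34771985-34772083, plus strand): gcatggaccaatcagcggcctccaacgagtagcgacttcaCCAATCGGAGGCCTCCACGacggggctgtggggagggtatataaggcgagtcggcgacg

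**Figure D3:**
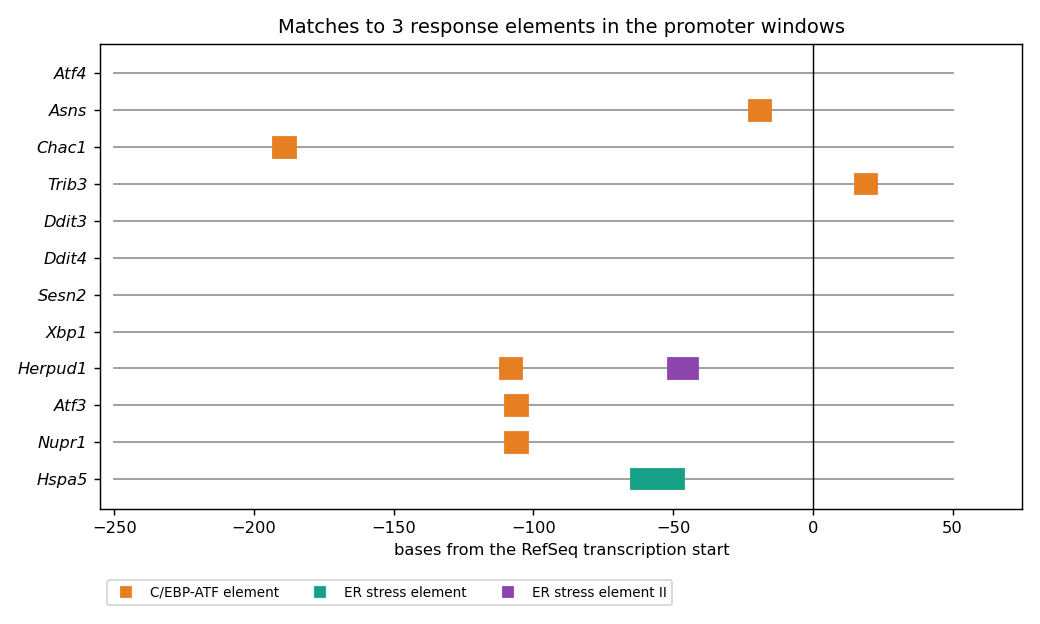
Position of matches to the C/EBP-ATF core and to both forms of the ER stress element in RefSeq promoter windows (x axis, bases from the transcription start; 1 line per gene). Matches to the C/EBP-ATF core appear for Asns, Chac1, Trib3, Herpud1, Atf3 and Nupr1, and ER stress elements for Herpud1 and Hspa5.

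Among the sensors and the eIF2 machinery 0 of 20 measured genes rose and 1 fell, 5% in all against 21.8% of all genes, and the median difference was 0.01. The gene that fell was Eif2ak1, which encodes HRI, the eIF2 kinase known for sensing heme (-0.45 ± 0.11, limma adjusted p = 0.02). It was at 8.53, 8.67 and 8.87 in Cre-positive arrays, against 9.10, 9.10 and 9.21 in Cre-negative arrays, so the groups did not overlap, and its call was lost with the sex term (adjusted p = 0.093). The other eIF2 kinases did not pass: Eif2ak3, which encodes PERK, differed by 0.22 ± 0.08 (limma adjusted p = 0.103), Eif2ak4, the amino acid sensor GCN2, by 0.20 ± 0.10, and Eif2ak2, the double-stranded RNA sensor PKR, by 0.18 ± 0.09. Ern1, which encodes IRE1, did not pass either (0.22 ± 0.13, adjusted p = 0.282). For Eif2ak2, Eif2ak3 and Eif2ak4 every Cre-positive value still lay above every Cre-negative value. Of the 20 genes 6 had this order, which 18.6% of all genes had. The opposite order was found for 3, and its share over all genes was not computed. Ppp1r15a, which encodes GADD34, the phosphatase subunit that reverses eIF2 phosphorylation, was at 7.37, 7.23 and 6.98 in Cre-positive arrays, against 6.88, 6.84 and 6.72 in Cre-negative arrays. Its groups did not overlap and it fell just short of the threshold (0.38 ± 0.12, limma adjusted p = 0.0508). Creb3l1, an ATF6-related factor of secretory cells, had a difference of -0.36 ± 0.26 and did not pass.

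Among ATF4 targets of amino acid supply, 5 transporters rose and 2 enzymes fell. Of 25 measured genes 6 rose and 2 fell, 32.0% in all against 21.8% of all genes, with a median of 0.21. The transporters that rose were Slc38a2, which carries neutral amino acids (0.96 ± 0.11, limma adjusted p = 0.000757), Slc1a5, a glutamine carrier (0.70 ± 0.10), Slc7a1, the cationic amino acid carrier (0.58 ± 0.13), Slc7a5, the light chain of the large neutral amino acid carrier LAT1 (1.06 ± 0.26), and Slc7a11, the cystine carrier (0.42 ± 0.12). The sixth gene was Cars, a cysteinyl-tRNA synthetase (0.45 ± 0.08). Slc38a2 was at 11.07, 11.20 and 11.01 in Cre-positive arrays, against 10.02, 10.30 and 10.07 in Cre-negative arrays, with wide space between the groups. The genes that fell were Shmt2, a mitochondrial enzyme of serine and glycine metabolism (-1.24 ± 0.12, adjusted p = 0.000501), and Cth, which makes cysteine from cystathionine (-1.30 ± 0.18, adjusted p = 0.00194). The largest differences that did not pass were those of Aldh18a1, of proline synthesis (0.51 ± 0.16), and Phgdh, of serine synthesis (0.48 ± 0.16). Slc3a2, the remaining transporter gene of the list, ran the other way and did not pass (-0.26 ± 0.11, limma adjusted p = 0.13). With the sex term 5 of the 8 calls held, and those of Slc7a11, Slc7a5 and Cars did not.

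Among other genes of the ATF4 and CHOP pathway, 7 of 16 measured genes rose and 1 fell, 50% in all against 21.8% of all genes, with a median of 0.34. Dusp8, a phosphatase of stress-activated kinases, was at 7.12, 7.20 and 7.17 in Cre-positive arrays, against 5.90, 6.03 and 5.85 in Cre-negative arrays (1.24 ± 0.09, limma adjusted p = 0.000118). Both groups were tight, and the space between them was far wider than their spread. Nupr1, a stress-induced nuclear protein (1.05 ± 0.13), Atf3, an early transcription factor of the stress response (1.01 ± 0.14), and Eif4ebp1, a repressor of translation (0.86 ± 0.08), also rose. Pmaip1, which encodes the pro-apoptotic protein NOXA (0.49 ± 0.13), Atf5, an ATF4-related factor (0.34 ± 0.09), and Tnfrsf10b, the death receptor that CHOP induces (0.50 ± 0.14), rose with adjusted p from 0.0294 to 0.0425. Vldlr, the very low density lipoprotein receptor, fell (-0.61 ± 0.10). Cebpb, a partner of ATF4 (0.58 ± 0.19), and Bbc3, which encodes PUMA (0.34 ± 0.11), did not pass. With the sex term 5 of the 8 calls held, and those of Atf5, Pmaip1 and Tnfrsf10b did not.

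Genes of ER folding capacity, the usual targets of XBP1 and ATF6, showed no common rise. Of 21 ER chaperones and folding enzymes 1 rose and 4 fell, 23.8% in all and near the 21.8% of all genes, with a median of -0.14. Hspa5, which encodes BiP, the chief ER chaperone, was at 8.51, 8.61 and 8.64 in Cre-positive arrays, against 8.67, 8.60 and 8.91 in Cre-negative arrays. These groups overlapped, and the difference of -0.14 ± 0.11 did not pass (limma adjusted p = 0.41), with a 95% interval of -0.39 to 0.10. The genes that fell were Fkbp2, an ER prolyl isomerase (-0.86 ± 0.09, adjusted p = 0.000564), the BiP partners Dnajb11 (-0.37 ± 0.11) and Dnajc3 (-0.29 ± 0.08), and Hsp90b1, which encodes GRP94 (-0.33 ± 0.09). The gene that rose was Tmem258, a subunit of the oligosaccharyltransferase (0.42 ± 0.09). Dnajb9, a BiP partner and XBP1 target, had the largest difference among those that did not pass (0.27 ± 0.09, adjusted p = 0.0634), and Sdf2l1 was at -0.24 ± 0.18. The calls of Fkbp2 and Dnajb11 held with the sex term, and those of Hsp90b1, Dnajc3 and Tmem258 did not.

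In ER-associated degradation, which removes misfolded protein from the ER, 1 of 20 measured genes rose and 3 fell, with a median of -0.04. Marchf6, an ER ubiquitin ligase (-0.63 ± 0.10, limma adjusted p = 0.00341), and the mannosidase-like genes Edem3 (-0.42 ± 0.10) and Edem1 (-0.37 ± 0.10) fell, and Ufd1, a cofactor of the ATPase that extracts the proteins (0.32 ± 0.08), rose. Selenos (-0.34 ± 0.11) and Derl2 (-0.30 ± 0.09) did not pass. In the translocon and ER to Golgi transport list 1 of 20 rose and 2 fell, with a median of -0.05. Sec24d, a coat protein of ER export vesicles (0.36 ± 0.10), rose, and Sec62, of the translocon (-0.51 ± 0.08), and Lman1, a cargo receptor (-0.32 ± 0.09), fell. Kdelr3, which retrieves ER proteins, was at 7.23, 7.91 and 8.71 in Cre-positive arrays, against 7.03, 7.06 and 7.29 in Cre-negative arrays. Its groups overlapped and its difference of 0.82 ± 0.32 did not pass (limma adjusted p = 0.11), nor did that of Sec61a1, the channel subunit (0.30 ± 0.10). The shares called in these lists, 20% and 15%, lie below the 21.8% of all genes. With the sex term the call of Marchf6 held in the first list and none held in the second.

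**Figure D4:**
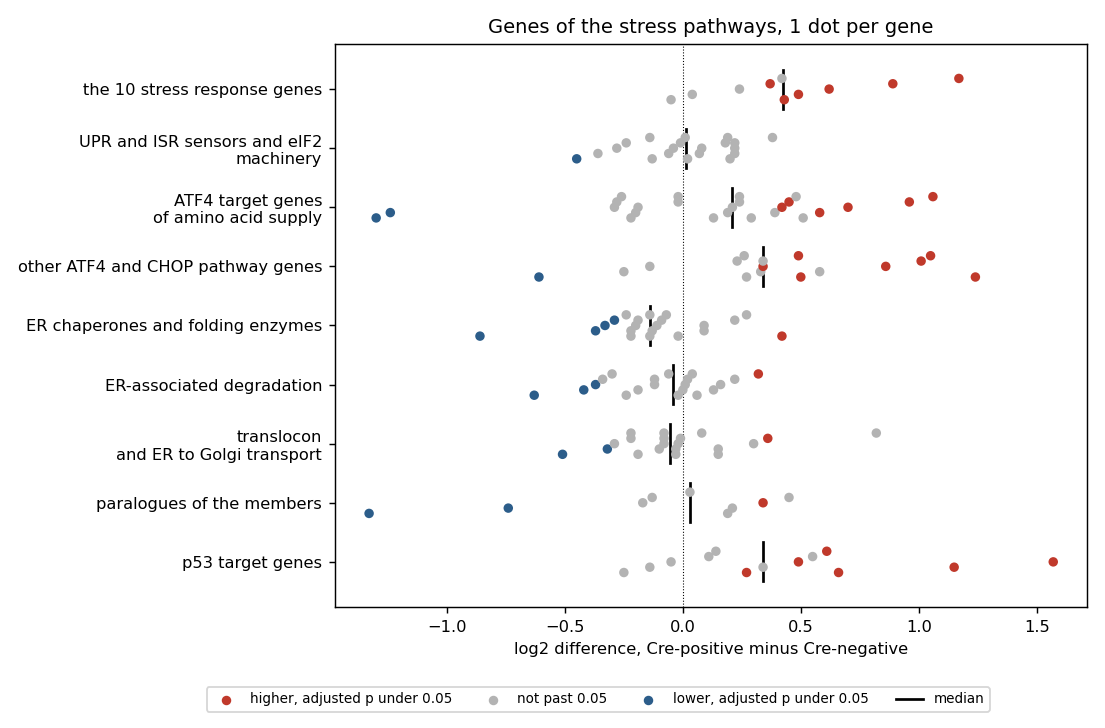
Log2 difference, Cre-positive minus Cre-negative (x axis), of each gene in the 10-gene group and in 8 pathway lists (rows; 1 dot per gene; dots are spread vertically for visibility only). Red dots were higher and blue dots lower at limma adjusted p under 0.05, grey dots did not pass, and black bars mark medians, from -0.14 for ER chaperones to 0.34 for the other ATF4 and CHOP pathway genes among the lists.

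Of 9 paralogues of the 10 genes 1, Atf5, rose and 2 fell, 33.3% in all against 21.8% of all genes. Chac2, which like Chac1 breaks down glutathione, was at 7.83, 7.75 and 7.96 in Cre-positive arrays, against 9.03, 9.11 and 9.38 in Cre-negative arrays, a difference of -1.33 ± 0.12 (limma adjusted p = 0.00029), where Chac1 had 0.42 ± 0.17. Trib2, a relative of Trib3, fell by 0.74 on the log2 scale (SE 0.12, limma adjusted p = 0.00444), where Trib3 had a difference of 0.24 ± 0.12. Both falls held with the sex term, and the rise of Atf5 did not (adjusted p = 0.178). Ddit4l, a relative of Ddit4 that also inhibits mTORC1, had a difference of 0.45 ± 0.14 and did not pass (limma adjusted p = 0.0526), and neither did Trib1 (0.21 ± 0.09), Sesn1 (0.19 ± 0.11), Sesn3 (-0.17 ± 0.10), Herpud2 (0.03 ± 0.09) or Atf6b (-0.13 ± 0.09). The difference between a gene and its relative was not tested.

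As Sesn2, Pmaip1 and Bbc3 are p53 targets too, genes that p53 induces were measured beside them. Of 13 such genes 6 rose and 0 fell, 46.2% in all, with a median of 0.34. Over all genes 21.8% were called in either direction and 10.7% were called higher. Cdkn1a, which encodes the cell cycle inhibitor p21, had the largest difference (1.57 ± 0.10, limma adjusted p = 9.15e-05), followed by Btg2 (1.15 ± 0.14), Phlda3 (0.66 ± 0.15), Eda2r (0.61 ± 0.10), Pmaip1 and Aen (0.27 ± 0.08). Trp53inp1 (0.55 ± 0.18) and Bbc3 did not pass. Nor did Ccng1 (-0.25 ± 0.09), Mdm2 (-0.14 ± 0.10) and Tigar (-0.05 ± 0.09), which ran the other way, or Zmat3 (0.11 ± 0.12) and Gtse1 (0.14 ± 0.14). The calls of Cdkn1a and Btg2 held with the sex term, and the other 4 did not.

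For the 4 transcription factor genes, the genes with the most similar profile over the 6 arrays were found by the root-mean-square difference of log2 values, each gene centred on its own mean. The nearest to Atf4 were Plekhm3 (0.024), Rai1 (0.025) and Mbd6 (0.034), and those to Xbp1 were Cd47 (0.03), Cdc25b (0.044) and Tnip2 (0.051). Each of these 6 genes was higher in Cre-positive arrays by 0.48 to 0.63. Haus4 (0.037), Clcn7 (0.045) and Thumpd3 (0.05) were nearest to Ddit3, and Ctag2l2 (0.01), Usp7 (0.017) and Caprin1 (0.018) to Atf6. Ranking by this distance favours genes with the same difference between groups, and for Atf6 genes that barely vary.

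**Figure D5:**
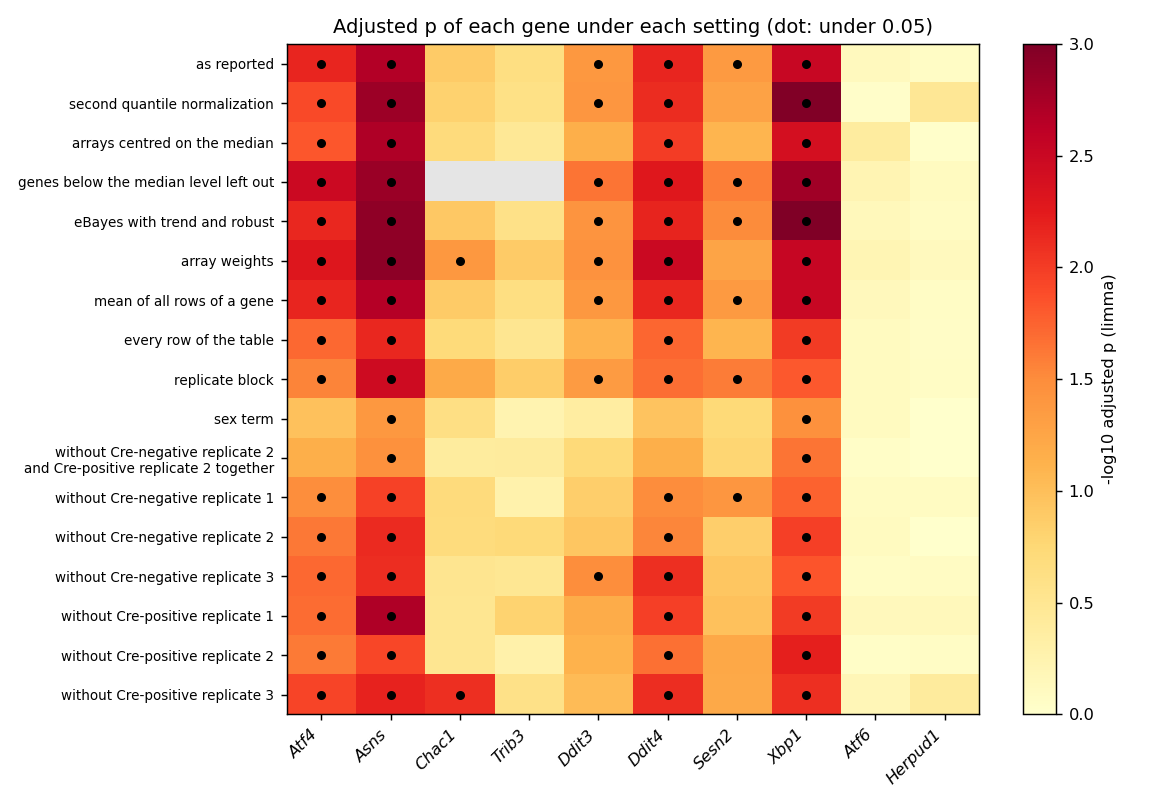
Limma adjusted p of each of the 10 genes (columns) as reported and under each alternative setting (rows), as -log10, with a dot where it was under 0.05 and grey where the gene was left out by the setting. Asns and Xbp1 have a dot in every row, Atf4 and Ddit4 in all but those of the sex term and of both replicates 2 left out, and Atf6, Herpud1 and Trib3 in none.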

How the data were processed

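Kidney RNA of 6 samples was measured on 1 single-colour Affymetrix array each. The authors deposited log2 values after RMA; the submitters' processing notes name RMA and Partek but no versions, and the build of the probe sets is not given in the sources used here. Values ran from 1.89 to 13.6. GEO's platform annotation gave 1 gene symbol to 23521 of 41345 rows, several to 1814 and none to 16010. A gene with several rows was represented by the one of highest mean, so that 22180 genes were tested, with no filter on low values. RMA compresses differences of dim probe sets. Columns of other samples numbered 0, and no scan date or slide was used, so no batch could be tested.

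The test was limma 3.58.1 (R 4.3.3; lmFit, then eBayes; two-sided; without covariates), adjusted by Benjamini-Hochberg over all 22180 genes, and it was tested on simulated data. Python 3.11.15, pandas 2.3.3, SciPy 1.17.1 and matplotlib 3.10.9 were used for joins, exact permutation tests and figures. Lists are described by counts and medians. The members, lists, motifs and tests were chosen with earlier results of these data known. Named list genes are up to 6 past the threshold in each direction, by p, and the 2 of largest difference among the rest, with Mpp5, Ern1, the eIF2 kinases, Hspa5, Ppp1r15a and Atf3 always named; Atf5, Atf6b, Pmaip1, Bbc3 and Derl3 stand in 2 lists each. Naming Tnfrsf10b, Slc3a2, the paralogues, the rest of the p53 targets, Sdc1 and the other single cell type markers beyond this rule was decided once their values had been seen. Gdf15, Pdia4, Eif2s1 and a few other list genes had no single-symbol row and were not analysed here.

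Each gene was recomputed after quantile normalization of the deposited values, after centring arrays on their medians, over the brighter genes alone, with eBayes's trend and robust options, with weighted arrays, with the rows of a gene averaged, with every row tested, with the replicate number as a block, with the sex term, without the replicates 2 of both groups, and without each array.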

Additional observations from a re-analysis of the deposited data

How the results depend on the processing

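Over all genes 4844 calls became 2030 with the sex term, 1853 without the replicates 2 of both groups, and 3141 to 4885 without single arrays (3141 without Cre-negative replicate 1). The count of the 10 genes called, 6, became 2 with the sex term and 2 without the replicates 2 of both groups. These settings leave fewer residual degrees of freedom, as do the replicate block and the omission of single arrays. The cause of the lower counts was not tested. The count was 4 to 5 without single arrays, 4 after median centring and 4 with every row of the table tested (more rows to adjust over). It was 5 after a second quantile normalization and 6 under each other setting, where array weights exchanged Sesn2 for Chac1. Herpud1, which never passed, was at -0.02 after median centring, -0.0036 without Cre-negative replicate 2 and -0.07 without Cre-positive replicate 1, with 0.15 as the highest value without a single array; the cause was not tested. The other 9 genes kept their direction in every setting run. Median centring moved the median of all genes to -0.07. List medians moved by more than the spread between arrays in 13 list and setting pairs and by less in 115. Deviations of same-numbered arrays from their group means correlated at 0.03, -0.042 and -0.015, and not every array correlated best with its own number. With 3 arrays per group these values cannot show whether same-numbered arrays shared a litter or a batch. The replicate block gave 6 of the 10 genes and 3977 genes in all. Chac1 and Trib3 lie below the median level of all genes (6.34) and were not tested without such genes.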
